A study of Mus musculus with 8 samples.

Results

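The 10 genes described here carry calcium signalling in the osteoclast, the bone-degrading cell of the macrophage lineage. They are Calcr, which encodes the calcitonin receptor, Ppp3ca, Ppp3cb and Ppp3r1, which encode subunits of the phosphatase calcineurin, Rcan1, a regulator of calcineurin, Orai1 and Stim1 of store-operated calcium entry, Atp2b1 and Slc8a1 of calcium export, and Tmem64, a membrane protein of the endoplasmic reticulum. The list was chosen by gene symbol, and each symbol matched 1 Ensembl identifier, so that 10 of the 46517 genes in the table were members. All 10 passed the filter on low values, as did 14139 genes in all.

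RANKL, the cytokine that drives osteoclast formation, sets off repeated rises of intracellular calcium. Phospholipase C gamma makes the messenger that opens release channels in the endoplasmic reticulum, STIM proteins sense the emptied store, and ORAI channels of the plasma membrane then admit calcium. Calcium-loaded calmodulin activates calcineurin, which removes phosphate from NFATc1, the transcription factor most closely tied to the osteoclast programme, and lets it enter the nucleus. RCAN1 binds calcineurin and restrains it, and its gene is itself a known NFAT target. Pumps and exchangers return calcium to the outside or to the stores, and the calcitonin receptor halts the resorbing cell when calcitonin binds.

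Osteoclasts were grown from the bone marrow of mice that lacked Elmo1 in every tissue (Elmo1-/-) and of controls that were heterozygous for the same allele (Elmo1+/-), so that both groups carried at least 1 null copy. ELMO1 is a cytoplasmic adapter of RAC signalling, and the study asked which transcripts depend on it in these cells. Mice were 6 to 8 weeks old, marrow was held for 16 h and the cells in suspension were moved to 10% L929-conditioned medium, a source of M-CSF. The RANKL stage, with 50 ng/ml GST-RANKL, lasted 7 days. Per the study's methods the cells that had attached after a first stage in L929 medium were replated for it, a step that the sample labels leave out. Each genotype has 4 mice with 1 library each (75 bp paired-end RNA-seq), numbered 1 to 4 within the genotype. The sample titles call the controls wild type, whereas the genotype label gives Elmo1+/-, which is used here. No sort preceded the RNA extraction, so the libraries hold every cell left in the dish.

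Reads assigned to genes ran from 20905502 to 40846651 per library. Elmo1 itself had a normalized count of 1593 ± 150.3 (SD, n = 4) in Elmo1+/- and 292 ± 17.6 in Elmo1-/- libraries, a log2 difference of -2.44 ± 0.09 (SE). Libraries numbered 1 and 2 lay apart from those numbered 3 and 4 on the first principal component, which held 62.3% of the variance. Elmo1-/- library 2 (score -6.03) lay nearest to the middle, closer to Elmo1-/- libraries 3 (26.36) and 4 (24.65) than to library 1 (-52.3). The study ran its mice as 2 experiments of 2 mice per genotype, and which numbers belong to which experiment is not stated, so the numbers are used only as numbers. All 11 osteoclast markers rose from numbers 1 and 2 to numbers 3 and 4 (limma, adjusted p from 0.000713 to 0.0118), with a summed normalized count of 481920 to 730520 in the former and of 1074100 to 1220400 in the latter. Of 10 macrophage markers 5 fell, and the sum of the 10 went from between 1550300 and 1932500 to between 1169300 and 1270900. That sum rests mostly on Lyz2, with 1502000 ± 146550 (SD, n = 4) in numbers 1 and 2 and 1045100 ± 30277 in numbers 3 and 4. Adgre1, Csf1r and Cd68 were among the 5 not called (limma adjusted p 0.228, 0.0874 and 0.775). The mean log2 value of the 10 markers was 13.64 to 13.91 in numbers 1 and 2 and 13.22 to 13.44 in numbers 3 and 4. Lymphoid markers summed to 2.97 to 14.003 in every library, with Cd3g at 0 throughout. Stromal and osteoblast markers summed to 1006 to 1699, mostly from Col1a1, Col1a2 and Dcn. Of that list Alpl, Bglap and Cxcl12 averaged only 1.64, 0.119 and 2.77 normalized counts. Neutrophil markers summed to 23417 to 29900 in numbers 1 and 2 and to 19460 to 21784 in numbers 3 and 4, with 1 of 10 called, S100a8 (log2 -0.61, adjusted p 0.00242).

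Calcineurin passes the calcium signal to genes through NFAT, so the upstream sequences of the members were read for the core of the NFAT site. The windows of 250 bases before each RefSeq start (GRCm38.p6) were searched on both strands for GGAAA, for the AP-1 site TGANTCA, whose factors bind beside NFAT, and for the CRE site TGACGTCA. Of the 10 members 8 had an entry (not Ppp3ca and Tmem64), in 11 windows, and GGAAA was found in 5 of the 11, against 55.6% of all 32851 windows. Rcan1 has 2 RefSeq starts, and they differed. The window before the internal start (chr16:92400079-92400328, minus strand) held 3 matches to GGAAA, 1 to the AP-1 site and 1 to the CRE site, and no base of it lies in an annotated exon. The window before the upstream start (chr16:92466170-92466419, minus strand) held none of the 3 motifs. All 3 motifs together were found in 10 of the 32851 windows (0.0304%), 3 or more GGAAA in 6.39%, an AP-1 site in 6.75% and a CRE site in 1.55%. These 2 windows are shown because the same gene carries both, followed by that of Ppp3cb (chr14:20546574-20546823, minus strand), which also held 3 matches to GGAAA, and that of Calcr (chr6:3764715-3764963, minus strand, 1 match). Capitals mark the matches, 5′ to 3′ along the gene.
Rcan1 internal start: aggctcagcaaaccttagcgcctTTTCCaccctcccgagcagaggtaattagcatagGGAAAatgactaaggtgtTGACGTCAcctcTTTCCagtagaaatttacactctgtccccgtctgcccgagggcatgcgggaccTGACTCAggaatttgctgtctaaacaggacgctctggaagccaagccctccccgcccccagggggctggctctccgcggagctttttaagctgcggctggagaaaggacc
Rcan1 upstream start: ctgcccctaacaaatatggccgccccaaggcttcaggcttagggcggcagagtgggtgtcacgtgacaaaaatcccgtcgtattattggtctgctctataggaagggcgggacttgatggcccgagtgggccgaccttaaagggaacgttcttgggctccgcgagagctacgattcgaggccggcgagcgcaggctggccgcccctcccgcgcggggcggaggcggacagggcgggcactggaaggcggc
Ppp3cb: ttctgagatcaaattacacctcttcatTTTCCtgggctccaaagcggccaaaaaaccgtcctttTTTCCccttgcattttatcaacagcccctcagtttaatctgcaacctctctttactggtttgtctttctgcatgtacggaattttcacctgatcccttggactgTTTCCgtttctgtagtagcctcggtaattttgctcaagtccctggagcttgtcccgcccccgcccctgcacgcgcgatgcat
Calcr: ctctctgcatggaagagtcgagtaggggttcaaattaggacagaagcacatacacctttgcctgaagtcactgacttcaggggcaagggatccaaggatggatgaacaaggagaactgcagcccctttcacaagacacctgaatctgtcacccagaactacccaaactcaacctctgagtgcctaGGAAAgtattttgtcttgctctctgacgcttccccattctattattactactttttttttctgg
The second RefSeq start of Calcr had no match. A match to these letters is a description of the window and not a measured binding site. The counts are per gene, so the transcripts from the 2 Rcan1 starts are summed in every value below.

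Between the genotypes, none of the 10 genes passed the test, and their means lay close together. Their log2 differences (Elmo1-/- minus Elmo1+/-, on the log2(normalized count + 1) scale) ran from -0.08 for Rcan1 to 0.08 for Slc8a1, with a median of -0.0042 against -0.0031 over all genes, and no adjusted p was below 0.9999 (limma, Benjamini-Hochberg adjustment over 14139 genes). Among all genes 0.00707% were called, which is 1 gene, Elmo1, and 0.941% had an unadjusted p under 0.05. None of the 10 members had an unadjusted p under 0.05, the smallest being 0.534, and edgeR and DESeq2 on the recovered reads called none either. The exact two-sided permutation test over the 70 arrangements of the libraries gave no p below 0.514, where 0.0286 is the smallest that 4 against 4 allows. The arrangements took no account of the split by library number, which makes this test less able to find a genotype difference. The same holds for the limma, edgeR and DESeq2 fits above, which had no term for the library number. The genotypes overlapped in all 10 members, as they did in all but 0.941% of genes. The 95% confidence interval of the difference ran from -1.06 to 1.08 for Calcr, from -0.82 to 0.67 for Rcan1 and from -0.65 to 0.72 for Tmem64. It was narrower for Orai1, from -0.41 to 0.40, and for Slc8a1, from -0.20 to 0.36. For the 3 calcineurin subunits, Stim1 and Atp2b1 it stayed between -0.25 and 0.23. With the number set as a further term in the limma fit, the interval narrowed to -0.59 to 0.61 for Calcr, to -0.31 to 0.16 for Rcan1, to -0.25 to 0.32 for Tmem64 and to -0.26 to 0.26 for Orai1. With the library number as a block it was -0.71 to 0.72 for Calcr, -0.37 to 0.22 for Rcan1, -0.23 to 0.30 for Tmem64 and -0.18 to 0.18 for Orai1. No member was called in either fit.

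**Figure D1:**
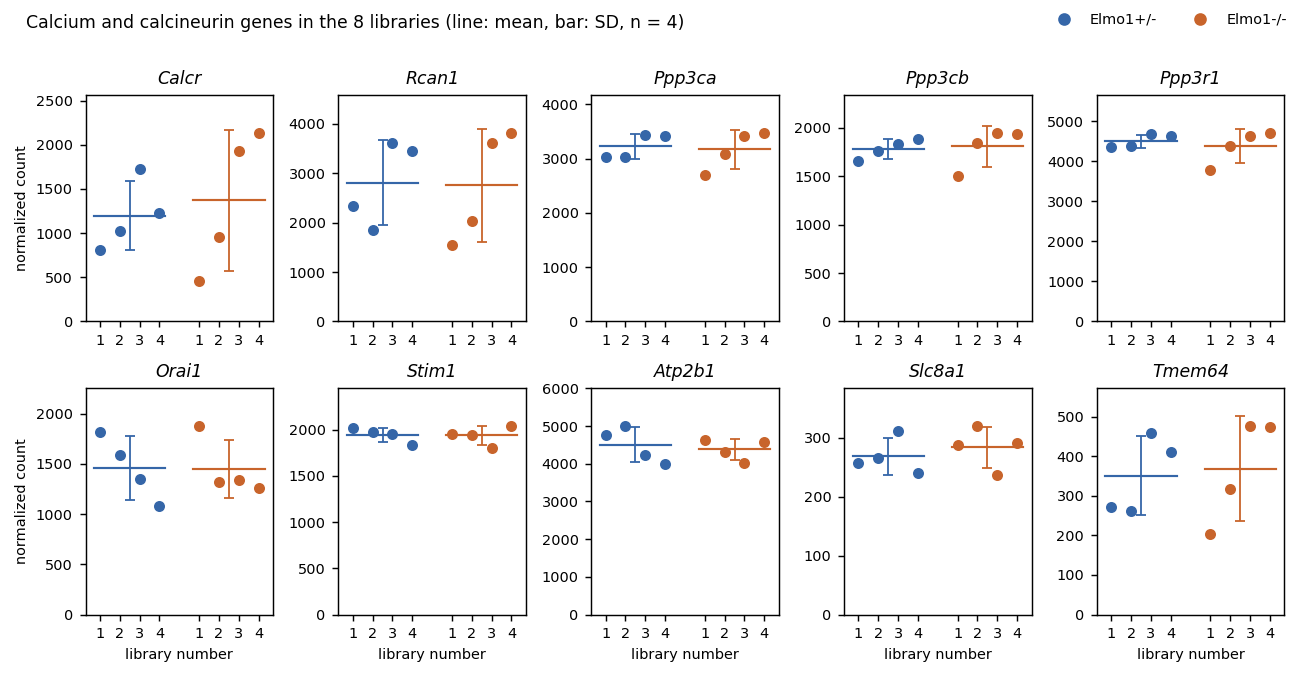
Normalized counts (vertical axes, from 0) of the 10 genes in the 8 libraries, by library number (horizontal axes) and genotype (colour), with each genotype's mean as a line and its SD as a bar (n = 4). The genotype means lie close together in every panel, whereas libraries 3 and 4 of both genotypes lie above libraries 1 and 2 for Calcr, Rcan1 and Tmem64.

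From numbers 1 and 2 to numbers 3 and 4, with genotype as a covariate, 4 members rose (Calcr, Rcan1, Tmem64 and Ppp3ca) and 1 fell (Orai1) at a limma adjusted p under 0.05, and edgeR also called 5. Over all genes 32.6% were called (33% by edgeR), 17% higher and 15.6% lower. The median log2 difference was 0.16 over the members and -0.01 over all genes tested. The number sets were chosen with earlier results of these data known, so adjusted p-values between them describe a split already seen. Summed osteoclast, macrophage and neutrophil markers also did not overlap between these libraries. The macrophage sum rests mostly on Lyz2, and the neutrophil sum on S100a8 and Mmp8. The mean log2 value of the 10 neutrophil markers did overlap, with 7.56 in Elmo1-/- library 2 and 8.75 in Elmo1+/- library 4. The part of these markers in the results of this comparison was not tested. In bulk RNA, fewer cells of a type and less RNA per cell cannot be told apart.

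The calcitonin receptor showed the largest difference of the 10. Normalized counts of Calcr were 808, 1024, 1724 and 1232 in Elmo1+/- libraries 1 to 4. In Elmo1-/- libraries 1 to 4 they were 454, 955, 1936 and 2138. The lowest library numbered 3 or 4 lay above the highest numbered 1 or 2, and Elmo1-/- library 1 had the lowest count of all. Calcr averaged 811 ± 254 (SD, n = 4) in numbers 1 and 2 and 1757 ± 389 in numbers 3 and 4, a log2 difference of 1.15 ± 0.26 (SE) with a limma adjusted p of 0.0121. Only 3.33% of the genes tested had a larger absolute difference. The call held without any single library, but the adjusted p was 0.0794 when no filter on low values was applied. Within Elmo1+/- the difference was 0.68 and within Elmo1-/- it was 1.63. The test of that contrast gave 0.95 ± 0.43 (SE), with an unadjusted p of 0.0555 and an adjusted p of 0.9999 (limma). Put the other way, the mean of Elmo1-/- was 0.47 log2 units lower than that of Elmo1+/- in numbers 1 and 2 and 0.48 higher in numbers 3 and 4. Each of these compares 2 libraries with 2. With a library left out the contrast ran from 0.41, without Elmo1-/- library 1, to 1.48, without Elmo1-/- library 2.

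Rcan1, the restraint on calcineurin, also rose. Its normalized counts were 2329, 1857, 3615 and 3444 in Elmo1+/- libraries 1 to 4. Those of Elmo1-/- were 1548, 2031, 3623 and 3824. The 4 libraries numbered 3 and 4 averaged 3627 ± 155 (SD, n = 4), all above those numbered 1 and 2, which averaged 1941 ± 327. Its log2 difference between the number sets was 0.92 ± 0.11 (SE, limma adjusted p 0.000736), with 0.76 within Elmo1+/- and 1.07 within Elmo1-/-. Leaving out each library in turn kept the call, with differences between 0.81 and 1.01.

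The 3 calcineurin subunits moved far less. Ppp3ca, a catalytic subunit, had normalized counts of 3022, 3035, 3435 and 3422 in Elmo1+/- and of 2695, 3091, 3411 and 3478 in Elmo1-/- libraries 1 to 4. The number sets did not overlap, and the log2 difference of 0.22 ± 0.06 (SE) had a limma adjusted p of 0.0211. This call was lost without Elmo1+/- library 1, 2 or 3 or without Elmo1-/- library 3 or 4, where the adjusted p reached 0.0684. Ppp3cb, the second catalytic subunit, ran from 1498 to 1950 over the 8 libraries, with a difference of 0.18 ± 0.07 (SE) and an adjusted p of 0.0822. Ppp3r1, the regulatory subunit that binds calcium, ran from 3787 to 4719, with 0.15 ± 0.06 and an adjusted p of 0.0939. Neither of these was called, and both were called without Elmo1-/- library 2. In that fit 6897 genes were called over all, in place of 4603. The annotated exons of Ppp3r1 share 462 bases with Wdr92 on the same strand, whose normalized count averaged 535, so reads there may be assigned to either gene or to none.

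Of the entry machinery, Orai1, the pore of the store-operated channel, fell and Stim1, its sensor in the endoplasmic reticulum, was not called. Orai1 had normalized counts of 1817, 1592, 1351 and 1083 in Elmo1+/- libraries 1 to 4. Its counts in Elmo1-/- were 1882, 1322, 1340 and 1263. Library 1 was high in both genotypes, and the number sets overlapped because Elmo1-/- library 2 lay among those numbered 3 and 4. The log2 difference was -0.38 ± 0.12 (SE) with a limma adjusted p of 0.0323. This is the least secure of the 5 calls, since it held only without Elmo1-/- library 2 (adjusted p 0.000547) and was lost without any of the other 7 libraries (up to 0.0997). Stim1 kept between 1805 and 2043 in all 8 libraries, with a difference of -0.05 ± 0.06 (SE) and an adjusted p of 0.554. Its coefficient of variation over the 8 libraries, 4.23%, was the lowest of the 10 members.

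Neither export gene was called. Atp2b1, a plasma membrane calcium pump, had normalized counts from 3992 to 5013 and a log2 difference of -0.15 ± 0.07 (SE, limma adjusted p 0.116). It was called without Elmo1-/- library 2, where 6897 genes were called over all, in place of 4603. Slc8a1, the sodium-calcium exchanger, was the lowest member after length correction, with 237 to 321 normalized counts and a difference of -0.07 ± 0.12 (adjusted p 0.670). Its lowest library held 205 reads, for a counting error of 6.98%, the largest among the members.

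Tmem64, which binds the SERCA2 calcium pump of the endoplasmic reticulum, split by library number in the same direction as Calcr and Rcan1. Its normalized counts were 271, 261.0, 460 and 410.2 in Elmo1+/- and 203, 318, 477 and 474 in Elmo1-/- libraries 1 to 4. Every library numbered 3 or 4 lay above every library numbered 1 or 2. The log2 difference was 0.80 ± 0.13 (SE) with a limma adjusted p of 0.00205, and it was 0.70 within Elmo1+/- and 0.90 within Elmo1-/-. The call held without any single library.

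**Figure D2:**
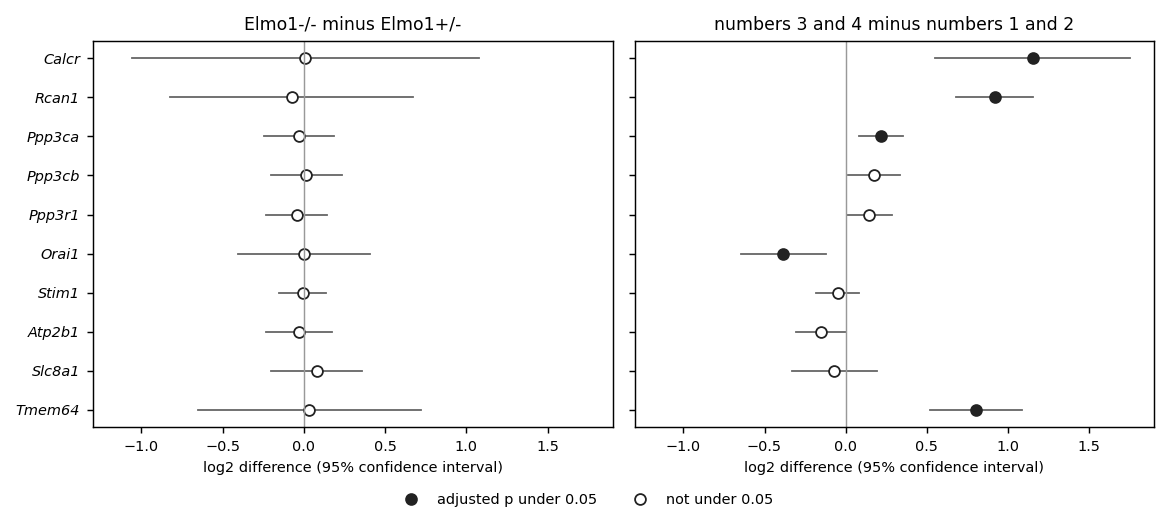
Log2 differences (horizontal axes) of the 10 genes with their 95% confidence intervals, between genotypes on the left and between number sets on the right, filled where the limma adjusted p was under 0.05. No point on the left is filled and all intervals there include 0, whereas 5 are filled on the right.

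Groups of libraries that did not overlap between the number sets were seen for 5 members (Calcr, Rcan1, Tmem64, Ppp3ca and Ppp3r1), against 34% of all genes tested. Without Elmo1-/- libraries 1 and 2 together, a comparison added after the data were seen, 6 members were called (Calcr, Rcan1, Tmem64, Ppp3ca, Orai1 and Atp2b1), against 33.8% of the 13933 genes tested in that fit. With those libraries out, the contrast rests on Elmo1+/- alone, where the difference of Calcr was 0.68 (limma adjusted p 0.0457). The interaction of genotype and number set was called for 0 of the 10 members and 0 of 14139 genes by limma and by edgeR (378 genes, 2.67%, at an unadjusted p under 0.05, none a member), and for 14 genes by DESeq2.

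**Figure D3:**
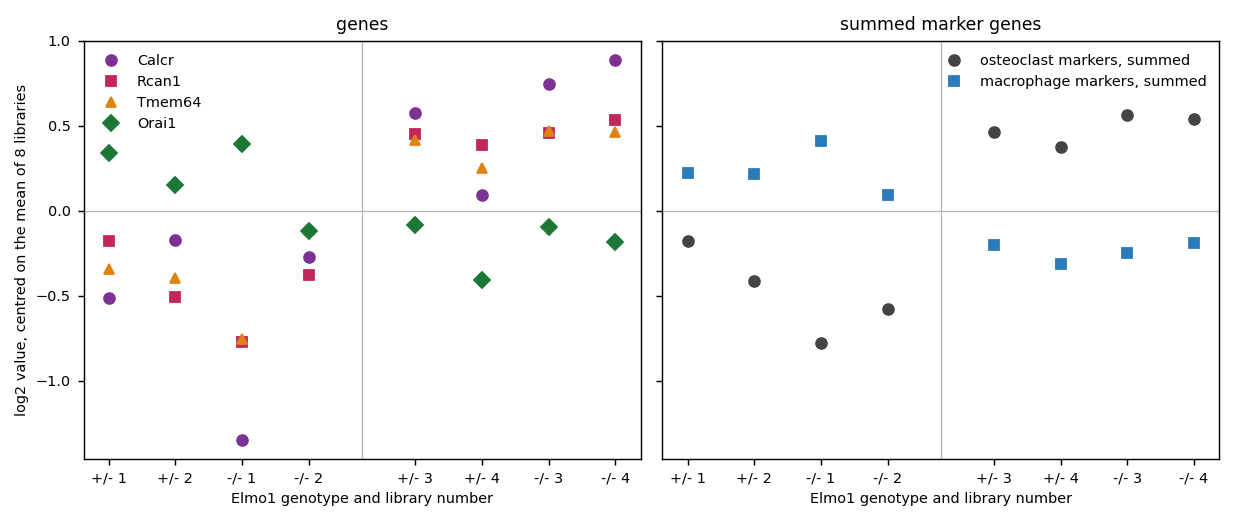
Log2 values centred on the mean of the 8 libraries (vertical axis) of Calcr, Rcan1, Tmem64 and Orai1 on the left and of the summed osteoclast and macrophage markers on the right, by genotype and library number (horizontal axis), with numbers 1 and 2 left of the vertical line. Elmo1-/- library 1 has the lowest Calcr, Rcan1, Tmem64 and osteoclast marker values and the highest Orai1 and macrophage marker values. The macrophage sum is mostly Lyz2.

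The levels of the 10 genes were compared per kilobase of exon. Ppp3r1 was highest with a normalized count of 1377 ± 94.3 per kb (SD, n = 8), above Rcan1 in all 8 libraries. Rcan1 (902 ± 302 per kb) and Orai1 (634 ± 122 per kb) exchanged places, with Rcan1 above in 5 of 8 libraries, and Orai1 was above Calcr (328 ± 151 per kb) in all 8. Calcr, Ppp3ca (320 ± 28.1 per kb) and Atp2b1 (292 ± 23.7 per kb) did not hold an order, since Calcr exceeded Ppp3ca in 3 libraries and Ppp3ca exceeded Atp2b1 in 5. Ppp3cb (204 ± 17.5 per kb) and Stim1 (187 ± 7.92 per kb) also overlapped, in the order given in 6 of 8 libraries. Tmem64 (77.0 ± 23.3 per kb) and Slc8a1 (14.7 ± 1.68 per kb) followed in every library. With the longest annotated transcript as the length, Calcr went from rank 4 to rank 8. For Calcr the union of exons (3912 bases) and the longest transcript (3763 bases) are close, whereas for Ppp3ca they are 9981 and 4758 bases.

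**Figure D4:**
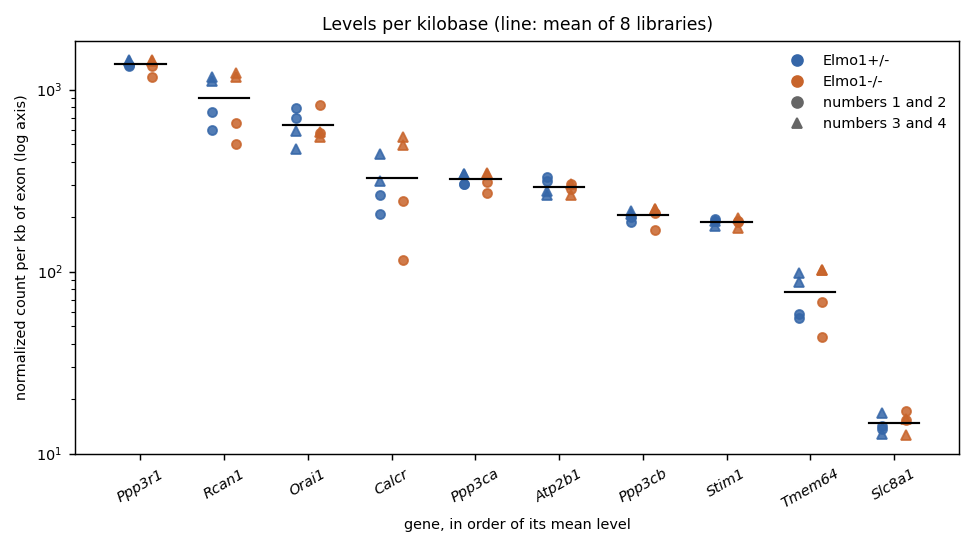
Normalized counts per kilobase of exon (vertical log axis) for the 10 genes in order of their mean level, 1 symbol per library, coloured by genotype and shaped by library number, with the mean of 8 libraries as a line. Calcr, Rcan1 and Tmem64 spread widely with triangles above circles, whereas Ppp3r1, Ppp3cb and Stim1 are tight.

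Shares within each gene family, taken from levels per kilobase, placed the members among their relatives. Ppp3ca made up 47.8% ± 0.656 (SD, n = 8) of the calcineurin catalytic transcripts, Ppp3cb 30.4% ± 0.995 and Ppp3cc 21.8% ± 1.22, and each of these shares overlapped between the number sets. Rcan1 took 63.4 to 67.4% of the RCAN transcripts in numbers 1 and 2 and 71.1 to 73.3% in numbers 3 and 4. Calcr took 23.2 to 34.8% of Calcr plus Calcrl, the receptor for the related peptides CGRP and adrenomedullin, in numbers 1 and 2 and 39.9 to 50.5% in numbers 3 and 4. Orai1 took 40.1 to 46.7% of the ORAI transcripts in numbers 1 and 2 and 35.0 to 39.5% in numbers 3 and 4. Atp2b1 held 86.3 to 91.1% of the plasma membrane pump transcripts in numbers 1 and 2 and 72.4 to 79.2% in numbers 3 and 4, the remainder being nearly all Atp2b4. Slc8a1 held 96.6% ± 1.82 of the exchanger transcripts. Stim1 held 42.9% ± 2.11 of the STIM transcripts, but 63.1% with the longest transcript as the length, so its order against Stim2 depends on the length used. With that length Ppp3ca took 51.1%, Ppp3cb 35.6% and Ppp3cc 13.3% of the catalytic transcripts. Atp2b4 then took 9.71% of the pump transcripts, in place of 17.7%.

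Other genes of the same pathways were read from 5 lists of 84 genes, of which 65 were tested. Between genotypes none was called, and none had an unadjusted p under 0.05. Between the number sets 30 of 65 were called (46.2%, against 32.6% of all genes), 11 higher and 19 lower. Genes that share reads with near-identical copies, such as Ppia and Calm2, are uncertain.

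In the list of calcineurin and NFAT genes, 5 rose and 4 fell of 15 tested (60% called, against 32.6% of all genes). The median log2 difference was -0.01, and -0.01 over all genes. Rcan2, a relative of Rcan1, rose most, from 64.4 ± 28.1 (SD, n = 4) to 208 ± 25.0 normalized counts, with a log2 difference of 1.81 ± 0.33 (SE, limma adjusted p 0.00491). Nfatc1 rose by 0.60 ± 0.14 (adjusted p 0.0110), from 3658 ± 695 to 5473 ± 449. Ppia, which encodes cyclophilin A, the target of cyclosporin, fell by 0.85 on the log2 scale (adjusted p 0.00192) at only 102 ± 34.3 (n = 8) normalized counts. Calm2, which encodes calmodulin, had 5343 ± 424 (SD, n = 8) normalized counts per kb and differed by -0.18 (adjusted p 0.0485), a call lost without each library in turn except Elmo1-/- library 2 (up to 0.161).

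Among genes of calcium entry and release 2 rose and 7 fell of 19 (47.4% called, against 32.6% of all genes, median -0.11). Trpv4, a channel of the TRP family, fell by 1.08 on the log2 scale (limma adjusted p 0.00369), from 165 ± 48.2 to 75.4 ± 8.92 normalized counts. The ATP-gated channels P2rx7 and P2rx4 fell by 0.51 (adjusted p 0.00155) and by 0.48 (adjusted p 0.0195), the P2rx4 call being lost without Elmo1+/- library 1 or 4 or Elmo1-/- library 3 (up to 0.0604). Plcg2, which makes the messenger for store release, differed by -0.16 (adjusted p 0.0481), a call likewise lost without each library except Elmo1-/- library 2 (up to 0.139). Saraf, a regulator of store-operated entry, differed by -0.17 (adjusted p 0.199).

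In calcium export and uptake 2 rose and 2 fell of 9 (44.4% called, against 32.6% of all genes, median -0.06). Atp2b4, the other plasma membrane pump present, rose from 478 ± 79.9 to 1096 ± 231 normalized counts, a log2 difference of 1.19 ± 0.16 (SE, limma adjusted p 0.0015). Atp2c1, the calcium pump of the Golgi, rose by 0.45 (adjusted p 0.00374), and Slc8b1, the mitochondrial sodium-calcium exchanger, fell by 0.68 (adjusted p 0.00582). The chaperones Calr and Canx, the highest of the list per kilobase, differed by -0.11 and -0.06 (adjusted p 0.408 and 0.460).

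Around the calcitonin receptor 0 rose and 4 fell of 13 (30.8% called, against 32.6% of all genes, median 0.01). Arrb2 and Arrb1, the arrestins that bind activated receptors, fell by 0.58 (limma adjusted p 0.00713) and by 0.22 (adjusted p 0.0184), and Gna11, a G protein subunit, fell by 0.35 (adjusted p 0.0149). The Arrb1 call was lost without Elmo1+/- library 1, 2 or 3 or Elmo1-/- library 3 (adjusted p up to 0.0628), and the Gna11 call without Elmo1-/- library 3 (0.0536). Prkar1a, a regulatory subunit of protein kinase A, differed by 0.09 (adjusted p 0.271). Calca, which encodes calcitonin, was listed at 0 in all 8 libraries, and Ppp3r2 and Trpv5 of the other lists likewise, where a count of 0 allows up to 3 reads, or 2.33 to 4.57 normalized counts by library. Such floors and the counting errors cover counting alone.

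Of the calcium/calmodulin kinases and their targets 2 rose and 2 fell of 9 (44.4% called, against 32.6% of all genes, median -0.04). Ppargc1b, a coactivator of mitochondrial genes, rose by 0.65 (limma adjusted p 0.00528) and Camk2d by 0.54 (adjusted p 0.00480). Camkk2 and its substrate Camk1 fell, each by 0.38 (adjusted p 0.00134 and 0.00986), and Camk1d differed by -0.12 (adjusted p 0.172).

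**Figure D5:**
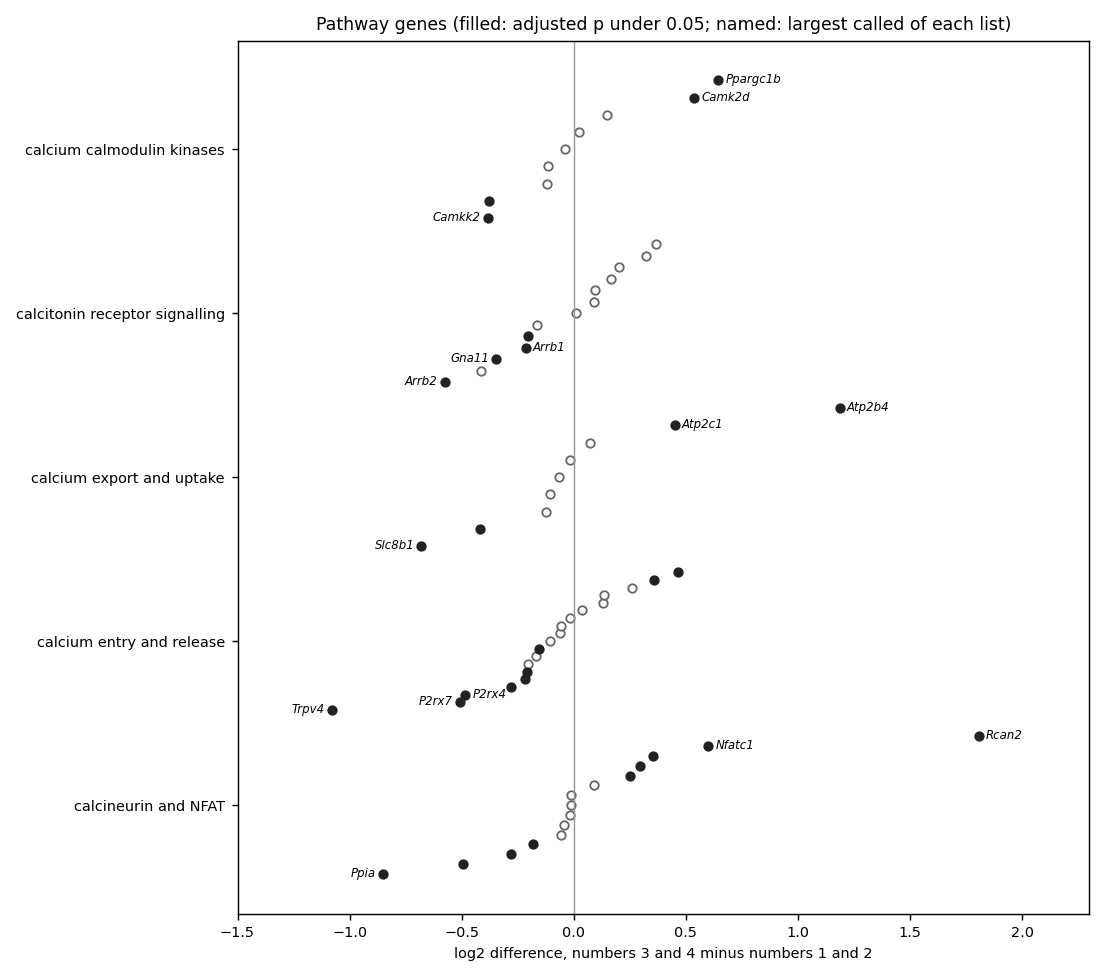
Log2 differences between the number sets (horizontal axis) of the 65 tested genes of the 5 pathway lists (vertical axis, genes ordered by value within a list), filled where the limma adjusted p was under 0.05. Rcan2 and Atp2b4 lie farthest to the right and Trpv4 farthest to the left.

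The genes whose pattern lay closest to that of Calcr were sought among 11841 genes with a mean normalized count of at least 50, by the root mean square distance between centred log2 values over the 8 libraries, which share the split by number. They were Ocstamp (distance 0.123), an osteoclast fusion gene, Msi2 (0.134), which encodes an RNA-binding protein, Cdon (0.158), Col27a1 (0.163) and St8sia6 (0.169). Closest to Rcan1 were Vamp1 (0.0642), Lpcat1 (0.0691), Src (0.0708), Ckap4 (0.0728) and Tmem65 (0.0749). Src encodes the kinase that osteoclasts need to form the ruffled border. The 2 sets of 5 had no gene in common. Ocstamp averaged 2750.4 ± 1212 (SD, n = 8) normalized counts and Src 4300.2 ± 1361.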

How the data were processed

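RNA-seq libraries of osteoclasts from 8 mice were analysed (4 Elmo1+/-, 4 Elmo1-/-), grouped by the genotype label. The authors aligned reads with STAR, counted them with featureCounts and deposited DESeq2-normalized counts per gene (signal values). Their genome build, annotation and strand setting were not named in what was read here. The deposited table also holds 5 columns of their own comparison and a mean, which were not used. In every library 100% of values were whole multiples of 1 step (tolerance 0.01 reads), so reads were recovered. Symbols and lengths came from GENCODE M21 on GRCm38 (46005 of 46517 identifiers matched), promoters from RefSeq.

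Where 4 or more libraries reached a normalized count of 10, genes were tested with limma 3.58.1 (trend, robust) on log2(normalized count + 1) in R 4.3.3, Benjamini-Hochberg threshold 0.05, by genotype, by number set with genotype as covariate, and by their interaction. Alternatives used edgeR 4.0.16, DESeq2 1.42.0, TMM, equal totals, other filters and pseudocounts, and each library left out. Scripts were tested on simulated data. Deviations of same-numbered libraries correlated at 0.703, 0.156, 0.598 and 0.520. Libraries of different number in the same set reached 0.691, so these correlations do not single out pairs. The library number was a block in an alternative genotype fit, and the main fits did not pair the libraries. The members, lists and number sets were chosen with earlier results of these data known. Named genes were the members, Elmo1, the 2 highest per kilobase and up to 3 largest calls of each pathway list, and the 5 genes nearest to Calcr and to Rcan1; 1 pathway gene that this rule names is not reported here. Mice are the replicates.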

Additional observations from a re-analysis of the deposited data

Results flagged for a closer look

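Orai1 in the Elmo1-/- libraries had 1 value far from the rest. Library 1 had a normalized count of 1882 and the other 3 had 1263 to 1340, so that the gap to the nearest was 0.875 of the range, past the bound that Dixon's test sets for 4 samples at the 95% level. It was 1 of 20 groups of members examined, and chance alone flags about 1 in 20. Elmo1-/- library 1 also had the highest summed macrophage markers (mostly Lyz2) and the lowest summed osteoclast markers. The part of these markers in this value was not tested. Without it, Orai1 was not called between the number sets (log2 -0.30, limma adjusted p 0.0775).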

How the results depend on the processing

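Between genotypes, 0 members were called under every alternative tried. Sign changes, all without a call, arose for Orai1 (0.0043 with equal totals, 0.00692 with TMM rescaling) and Stim1 (0.00019 and 0.0028). With each library left out, the log2 genotype differences ranged from -0.287 to 0.4575 for Calcr, from -0.268 to 0.167 for Rcan1, from -0.0784 to 0.0442 for Ppp3ca, from -0.0250 to 0.102 for Ppp3cb, from -0.0831 to 0.0227 for Ppp3r1, from -0.137 to 0.112 for Orai1, from -0.0339 to 0.0274 for Stim1, from -0.0881 to 0.0213 for Atp2b1 and from -0.118 to 0.291 for Tmem64. Over all genes, 1 was called, with 2 by DESeq2 and 1 to 2 with a library left out. With the replicate block of the library number, 1 gene and 0 members were called, and the block changed no call among the members.

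Between number sets, 5 members were called, 3 to 8 with a library left out (3 without Elmo1+/- library 1, 2 or 3 or Elmo1-/- library 3 or 4, 8 without Elmo1-/- library 2), 4 with no filter on low values, where Calcr was lost, and 5 under the other alternatives planned. Called genes over all numbered 4603, and 2861 to 6897 with a library left out. The member counts went with these, at 6897 genes without Elmo1-/- library 2 and 2861 to 2900 where 3 members were called. Signs turned, again without a call, for Slc8a1 (-0.174 to 0.0167 with a library left out, 0.0666 without Elmo1-/- libraries 1 and 2). Calm2 and Plcg2 were lost with edgeR, TMM rescaling, equal totals and no filter. The interaction gave 0 genes, 14 by DESeq2 and 0 to 239 with a library left out (181 without Elmo1-/- library 1, 239 without library 2). Its sign turned with a library left out for Ppp3ca (-0.0227 to 0.175), Ppp3cb (-0.0500 to 0.249), Orai1 (-0.0410 to 0.468), Stim1 (-0.0378 to 0.141) and Tmem64 (-0.128 to 0.517). With settings chosen after seeing the data, 5 (equal totals) or 4 (pseudocount 8) of the 5 genes nearest to Calcr and of those nearest to Rcan1 were the same. The causes were not tested. The lowest member count in a library was 205 reads, a counting error of 6.98%.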
